A study of Mus musculus with 9 samples.

Results

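Granulocyte-monocyte precursors and promyelocytes are the bone marrow cells in which the first set of neutrophil granules is made. They were picked out here from single-cell RNA sequencing of femur marrow by their content of 3 primary granule transcripts. A cell was taken when Mpo, Elane and Prtn3 together made up at least 1% of its unique molecular identifiers (UMIs, each of which marks 1 captured transcript), when Camp and Ngp, the transcripts of the next granule set, made up less than 1%, and when S100a8 and S100a9, which rise later in neutrophils and in monocytes, made up less than 5%. Of 68444 deposited cell barcodes, 39051 held at least 1000 UMIs and 500 genes with at most 10% mitochondrial UMIs, and 2002 of these met the limits on granule transcripts. The marrow came from female mice of 9 to 10 weeks, for which no treatment is named, 3 of each of 3 strains, and each mouse gave 1 library. NZBWF1 is the first-generation cross of an NZW mother and an NZB father and is a standard model of lupus, an autoimmune disease, while NZB and NZW are its inbred parents, and the study asked how the marrow of the cross differs from that of its parents.

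Neutrophils and monocytes share a precursor, the granulocyte-monocyte precursor. The transcription factors C/EBPα and PU.1 (Cebpa, Spi1) open this path, Irf8 favours the monocyte branch, and Gfi1 and C/EBPε (Cebpe) carry the neutrophil branch onward. A promyelocyte fills its azurophil granules with myeloperoxidase (Mpo) and the serine proteases neutrophil elastase (Elane), proteinase 3 (Prtn3) and cathepsin G (Ctsg). These proteins are folded and glycosylated in the endoplasmic reticulum (ER), so the cell carries a heavy secretory load while it still divides.

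The NZB mice gave 144, 411 and 139 such cells, the NZW mice 154, 271 and 255, and the NZBWF1 mice 61, 375 and 192, in the order of their replicate numbers. Their median UMI count ran from 4342 to 7450 per mouse, against 2182.5 to 2536.5 over all kept barcodes, and the UMIs summed over the gated cells of a mouse ran from 530047 to 1978877. Levels are given as counts per 1000000 UMIs (CPM) of these sums, so they are shares of the captured RNA of the cells and not amounts per cell. Median mitochondrial shares were lower in NZB (5.32 ± 0.403%, SD, n = 3) than in the others, whose 6 medians ran from 5.80 to 6.64%. No barcode sequence was shared between gated cells of different libraries, although 28 gated cells had a barcode that also occurred in some other deposited cell. Droplets without cells held 0.102 to 0.285% of Mpo, Elane and Prtn3 among their UMIs, below the 1% limit.

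The label was checked against genes that the limits did not use. Ctsg stood at 4340 ± 461 CPM (SD, n = 9) in the gated cells and 151 CPM in all other kept cells, a 28.8-fold difference that led the genes with at least 50 CPM. Cst7, an inhibitor of cysteine proteases, followed among the unused genes at 14.9-fold, then Ms4a3, a gene of granulocyte-monocyte precursors, at 12.4-fold, Fkbp11, a prolyl isomerase of the secretory pathway, at 11.2-fold, and Prss57, a serine protease of neutrophil granules, at 10.5-fold. All 5 were higher in the gated cells of 9 of 9 mice. The progenitor gene Cd34 was 7.20-fold higher. These folds are descriptions, since the cells were chosen by granule transcripts. The gated cells were spread over the limit without a gap, with 98 cells between 1 and 1.1% and 97 otherwise eligible cells between 0.9 and 1%.

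Markers of other cells, the monocyte lineage aside, were present at low levels, and Gp1bb, of megakaryocytes, was the only one of them at 0 in all mice. The 14 measured genes of the monocyte lineage summed to 1795 to 2157 CPM in NZB, 1777 to 2403 CPM in NZW and 1835 to 2086 CPM in NZBWF1. Over the other kept cells that sum was 2831 to 3252 CPM. The 8 B cell markers summed to 74.5 to 119 CPM in NZB, 158 to 199 CPM in NZW and 96.2 and 213 CPM in 2 of the NZBWF1 mice, but to 4022 CPM in NZBWF1 replicate 3, of which Igkc, an immunoglobulin light chain, made up 3872 CPM. The B cell sum over the other kept cells was 4241 to 43114 CPM. The 8 erythroid markers summed to 28.3 to 128 CPM in NZB and NZBWF1 and to 181 to 529 CPM in NZW. The 7 T and NK cell markers stayed at or under 21.5 CPM in every mouse, the 6 dendritic cell markers lay between 92.2 and 150 CPM and the 6 markers of mature neutrophils between 86.8 and 471 CPM.

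Within the gate, gene shares changed with granule content. Means of groups cannot tell a continuous series of cells from a changing mix of separate kinds. Split by their share of Mpo, Elane and Prtn3, 795 cells held 1 to 2%, 948 held 2 to 5% and 259 held 5% or more, the highest being 9.16%. To compare cells of unequal depth, each was thinned to 1000 UMIs before counting which cells still showed a gene. Irf8 was seen in 49.1 ± 8.84% of the lowest group (SD over 9 mice), 24.2 ± 7.56% of the middle group and 1.39 ± 4.17% of the highest, where 1 mouse stood at 12.5% and the others at 0. Cebpe ran the other way, from 3.98 ± 1.67% through 14.1 ± 3.93% to 34.1 ± 6.62%, and Ms4a3 rose with it, from 34.0% through 72.5% to 93.3%. Mki67 or Top2a, which mark dividing cells, were seen in 44.8%, 28.6% and 19.5% of the 3 groups, and the progenitor genes Cd34 or Kit in 14.0%, 9.38% and 3.14%. Csf1r, the receptor for macrophage colony-stimulating factor, fell from 7.11% through 2.36% to 0.694%, the last again from 1 mouse (6.25%) with the others at 0, and Gfi1 went from 1.60% through 6.14% to 8.52%.

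**Figure D1:**
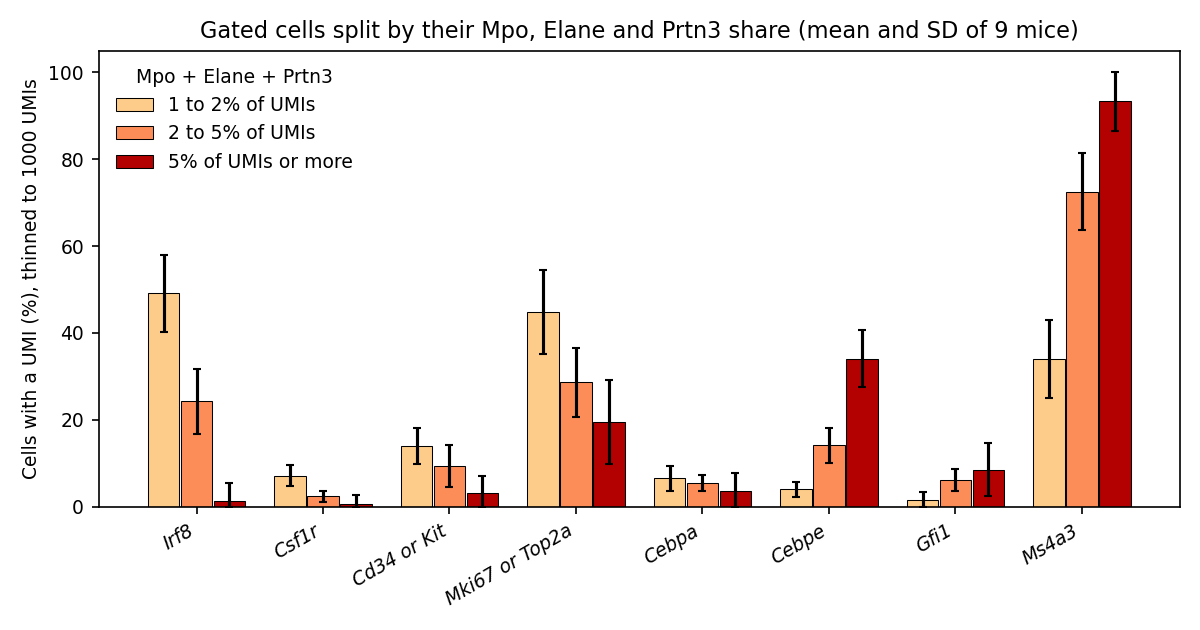
Share of gated cells with at least 1 UMI of each gene (y axis, percent, after thinning to 1000 UMIs) in 3 groups of rising Mpo, Elane and Prtn3 content (colours); bars are means of 9 mice and error bars are SD, drawn no lower than 0. Irf8 falls from 49.1% to 1.39% across the groups while Cebpe rises from 3.98% to 34.1%.

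Shares as low as some of these were also met in other cells. Cells that held Camp and Ngp at 1% or more (14208 cells, median 2551.5 UMIs, against 5189.5 in the gated cells) showed Irf8 in 2.04% and Csf1r in 0.965%. Both shares were above those of the highest group. The part of stray RNA in these low shares was not tested. For Gfi1, the 1.60% of the lowest group stands beside 2.10 ± 2.75% in 1500 B-lineage cells (median 1969 UMIs) and 0.107 ± 0.138% in 4778 cells of the monocyte lineage, taken by at least 3 UMIs of Csf1r, F13a1 and Ly86 and little of either granule set (median 2495.5 UMIs). Irf8 and Cebpe were rarely seen together. Among the 608 cells with an Irf8 UMI, 2.66 ± 2.09% also showed Cebpe, against 17.8 ± 5.04% of the 1394 cells without one (SD, n = 9). Gfi1 behaved alike, at 1.56% and 6.11%. None of these shares was tested. The groups of rising granule content were cut on the granule transcripts themselves, and the cells with and without Irf8 were compared as a description.

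The share of kept marrow barcodes that met the limits did not separate the strains. It was 5.87, 8.05 and 4.23% in NZB, 3.57, 5.27 and 5.15% in NZW and 2.38, 6.75 and 3.38% in NZBWF1. The 95% Wilson interval, which covers counting error only, ran from 7.33 to 8.82% for NZB replicate 2 and from 3.60 to 4.98% for NZB replicate 3, so mice of 1 strain differed by more than counting error. The ranges of the 3 strains overlapped, and an exact permutation test over the 280 ways to split the 9 mice into 3 groups gave p = 0.454 (a test over the 3 strains with no direction, adjusted p = 0.607 over 6 shares). A stricter mitochondrial limit of 5% kept 345 gated cells and gave an exact permutation p of 0.0143, with 2.84 to 3.05% in NZB against 0.434 to 1.1% in the other 6 mice, beside the lower mitochondrial shares of NZB given above.

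Gene levels differed most between the parent strains. In edgeR's quasi-likelihood test over 7975 genes, with the 7 genes of the limits left out, 417 genes were higher in NZB than in NZW (5.23% of those tested) and 513 were lower (6.43%) at a Benjamini-Hochberg adjusted p under 0.05, or 11.7% in all. The counts fell to 229 and 271 with DESeq2. The shares of 5.23% and 6.43% are those to set beside each count of list genes between the parents below. The CPM ranges of the NZB and NZW mice did not overlap for 28.8% of all genes tested, and for 838 of the 930 that passed the test.

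ER chaperones and folding enzymes were higher in NZB. Of 24 measured genes of ER folding and secretion, 13 rose in NZB, 1 fell and 10 did not pass the test. Their median log2 fold change was 0.38, against -0.02 over all genes. The list held 12 to 14 called genes when single mice were left out and 6 of 23 at the 5% mitochondrial limit, where its median was 0.54. Hspa5 (BiP), the main chaperone of the ER lumen, stood at 895, 1267 and 1118 CPM in NZB, 587, 578 and 521 CPM in NZW and 774, 710 and 839 CPM in NZBWF1. Every NZB mouse was above every NZBWF1 mouse, and every NZBWF1 mouse was above every NZW mouse. The log2 fold change of Hspa5 between the parents was 0.85 ± 0.12 (SE, adjusted p = 5.5e-08).

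Hsp90b1 (GRP94), the ER member of the HSP90 chaperones, showed the same order, with 1055, 1387 and 1391 CPM in NZB, 617, 671 and 619 CPM in NZW and 885, 720 and 795 CPM in NZBWF1 (0.89 ± 0.12 between the parents, adjusted p = 5.51e-09). Manf, a secreted ER stress protein, was at 1051 ± 140 CPM in NZB and 496 ± 63.4 CPM in NZW (SD, n = 3; log2 fold change 0.97 ± 0.12, adjusted p = 1.14e-09). Creld2, another ER stress protein, moved most, from 65.6 ± 16.6 CPM in NZW to 202 ± 56.5 CPM in NZB (1.54 ± 0.22, adjusted p = 0.00017). The disulfide isomerases Pdia3, Pdia4 and Pdia6, the lectin chaperones Calr and Canx, the BiP cochaperones Dnajb11, Dnajc3 and Sdf2l1, and the translocon-associated subunit Ssr2 were also higher in NZB, by 0.34 to 0.98 on the log2 scale. The exception was Xbp1, a transcription factor of the unfolded protein response, which was at 53.1, 98.0 and 98.6 CPM in NZB and 167, 109 and 175 CPM in NZW (-0.94 ± 0.21, adjusted p = 0.00749).

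**Figure D2:**
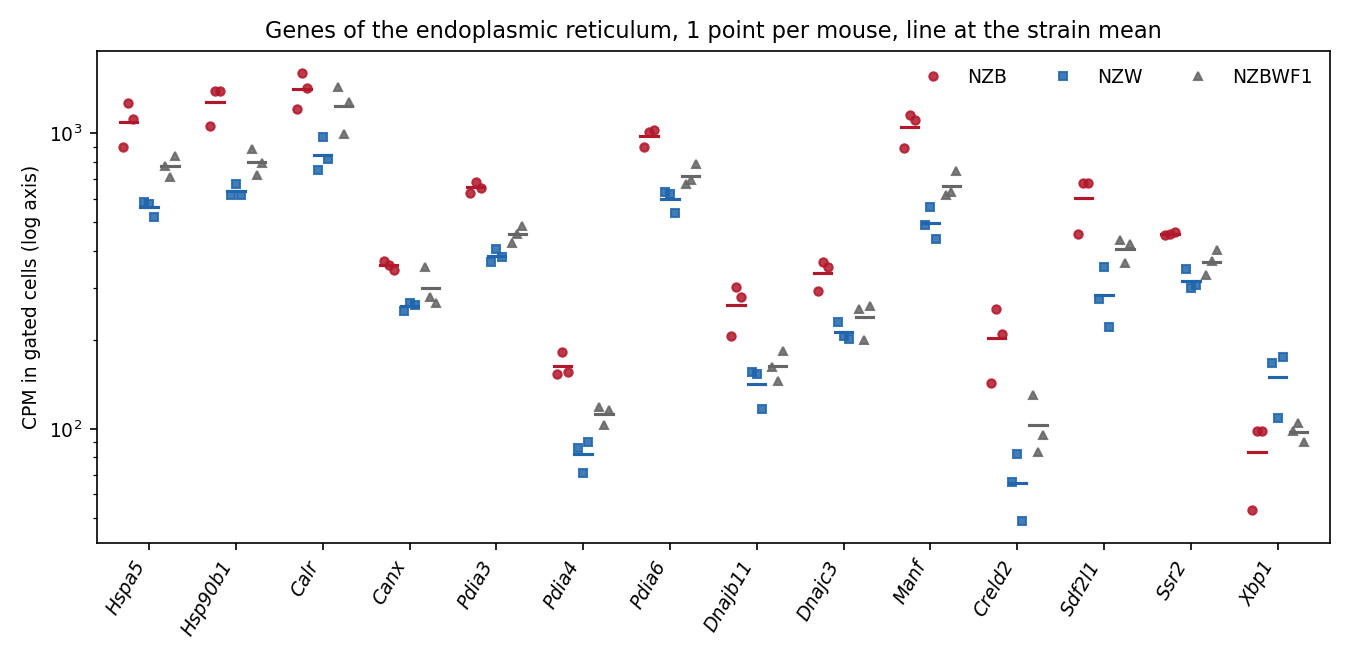
CPM of 14 genes of the endoplasmic reticulum in the gated cells of each mouse (y axis, log scale), by strain (colour and marker), with a line at each strain mean. All NZB points lie above all NZW points for the first 13 genes, and below them for Xbp1.

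The ER stress response element, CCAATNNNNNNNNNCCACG, is a known promoter element of chaperone genes through which the unfolded protein response acts. It was searched on both strands of RefSeq promoter windows (build GRCm38.p6, from 250 bases before to 50 bases after each gene's start, the C57BL/6J reference and not the sequence of these strains). An exact match lay in 39 of 32851 windows, or 0.119%. Of the 13 genes of the ER list that were higher in NZB, 11 had a window and 7 of these held a match. Of the other 12 genes of the list, 11 had a window and 0 held one. Only 10 genes with a match were tested in the gated cells, and the 7 that rose in NZB were the 7 of the ER list. The other 3, Hnrnpa3, Pan2 and Syvn1, named after their values were seen, were not on the list and did not pass the test. These counts depend on which genes the list holds. The sites are shown with 5 bases on each side, along the gene's own strand, with the match in capitals. Those that begin with CGTGG are read in reverse. Hsp90b1 has 2 sites.
Hspa5, chr2:34772020-34772048, plus strand: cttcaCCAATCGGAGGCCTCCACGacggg
Hsp90b1, chr10:86705633-86705661, minus strand: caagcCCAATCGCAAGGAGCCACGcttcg
Hsp90b1, chr10:86705528-86705556, minus strand: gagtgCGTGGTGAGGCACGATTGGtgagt
Creld2, chr15:88819515-88819543, plus strand: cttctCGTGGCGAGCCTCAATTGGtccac
Pdia6, chr12:17266486-17266514, plus strand: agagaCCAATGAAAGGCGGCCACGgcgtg
Calr, chr8:84847070-84847098, minus strand: caacgCGTGGTCGACCCTCATTGGcccat
Canx, chr11:50325795-50325823, minus strand: attgaCCAATCACCACGCTCCACGaagaa
Dnajc3, chr14:118937822-118937850, plus strand: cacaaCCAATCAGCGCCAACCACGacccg
In these 8 sites the first base of the match lay from 65 to 212 bases upstream of the gene start. A match is a description of the reference sequence, and binding was not measured.

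The ER genes were not particular to the gated cells. In the more mature cells with Camp and Ngp, 12 of 25 ER genes were higher in NZB than in NZW and 1 lower, with a median log2 fold change of 0.51, where 9.71% of all genes tested were called. In cells of the monocyte lineage 17 were higher and 1 lower, with a median of 0.59, where 16.9% of all genes were called. A test of the difference between populations, with the mouse as a block, found 1 of 25 ER genes to differ from the Camp and Ngp cells (Ssr4) and 2 to differ from the monocyte lineage (Sec61b and Ssr4), where 2.81% and 2.21% of all genes tested differed. As a description, the ER list summed to 11146 CPM in the gated cells, against 2114 CPM in the Camp and Ngp cells and 5700 CPM in the monocyte lineage. This sum rose from 9761 CPM in the group lowest in granule transcripts to 12644 CPM in the highest.

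Genes of cell division were higher in NZB too. Of 22 genes of G2 phase and mitosis, 12 rose in NZB and 0 fell, with a median log2 fold change of 0.39, and 21 of the 22 fold changes were positive. In the monocyte lineage 13 of these 22 were higher in NZB and 0 lower (median 0.42), where 16.9% of all genes were called. In the Camp and Ngp cells 0 were called (median 0.09), where 9.71% of all genes were. The test of the difference between populations found 0 of the 22 to differ from either, where 2.81% (Camp and Ngp cells) and 2.21% (monocyte lineage) of all genes did. Of 22 genes of S phase, 5 rose in the gated NZB cells and 0 fell. The replication clamp Pcna, at 78.2, 85.9 and 97.5 CPM in NZB, 22.3, 29.4 and 19.4 CPM in NZW and 37.7, 51.1 and 52.0 CPM in NZBWF1, moved most (1.75 ± 0.19, adjusted p = 7.26e-12) of these 22, and the 3 strains did not overlap. Its copy Pcna-ps2 went the other way, with 2 UMIs over NZB and 39 over NZW, and reads can be split between them. Summed, an analysis added after the values were seen, they came to 79.1, 86.4 and 97.5 CPM in NZB, 30.8, 40.6 and 32.6 CPM in NZW and 41.5, 57.8 and 55.8 CPM in NZBWF1 (1.21 ± 0.17 between the parents, adjusted p = 1.01e-07), and NZBWF1 did not pass the test against NZW (adjusted p = 0.217). The mitotic kinases Aurka (0.77 ± 0.18) and Plk1 (0.79 ± 0.19) and the spindle checkpoint kinase Bub1 (0.78 ± 0.20) were higher in every NZB mouse than in every NZW mouse, with adjusted p = 0.0011, 0.00177 and 0.0049. Top2a, the topoisomerase of dividing cells, rose by 0.39 ± 0.12 (adjusted p = 0.0257), and Mki67 had a log2 fold change of 0.27 ± 0.12 that did not pass the test (adjusted p = 0.155).

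Counted by cell, Mki67 or Top2a was seen in 41.7, 44.5 and 40.3% of thinned gated NZB cells, 20.1, 33.9 and 29.4% of NZW cells and 34.4, 29.9 and 34.4% of NZBWF1 cells, by mouse. All NZB mice were above the other 6. This share falls with granule content, and the group of 5% or more held 5.56, 10.2 and 6.47% of the gated cells of the NZB mice, 27.9, 16.2 and 10.2% of those of NZW and 29.5, 14.1 and 8.33% of those of NZBWF1. The part of granule content in the strain difference was not tested. The exact permutation test gave p = 0.00714 (adjusted p = 0.0429 over 6 shares), where 0.00357 is the smallest value the design allows. Without thinning the shares were 81.3 to 83.5% in NZB, 58.0 to 64.2% in NZW and 63.7 to 80.3% in NZBWF1. The call depended on the limits. With the granule limit at 0.5% the strain means were 43.5% in NZB, 33.6% in NZW and 36.7% in NZBWF1 (exact permutation p = 0.196), and at 2% NZB stood at 31.9%, NZW at 21.7% and NZBWF1 at 23.7% (exact permutation p = 0.0821). Without NZB replicate 2 the exact permutation p was 0.05. The count of 12 mitotic genes ran from 3 without NZB replicate 2 to 13 without NZBWF1 replicate 1 or 3, and was 6 without NZB replicate 3 and 7, 5 and 5 without NZW replicates 1, 2 and 3. It was 7 with DESeq2 and 1 of 21 at the 5% mitochondrial limit, with median log2 fold changes of 0.40 and 0.47. The 5 genes of S phase became 3 and 0 of 18, with medians of 0.11 and 0.05, against 0.09 before.

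**Figure D3:**
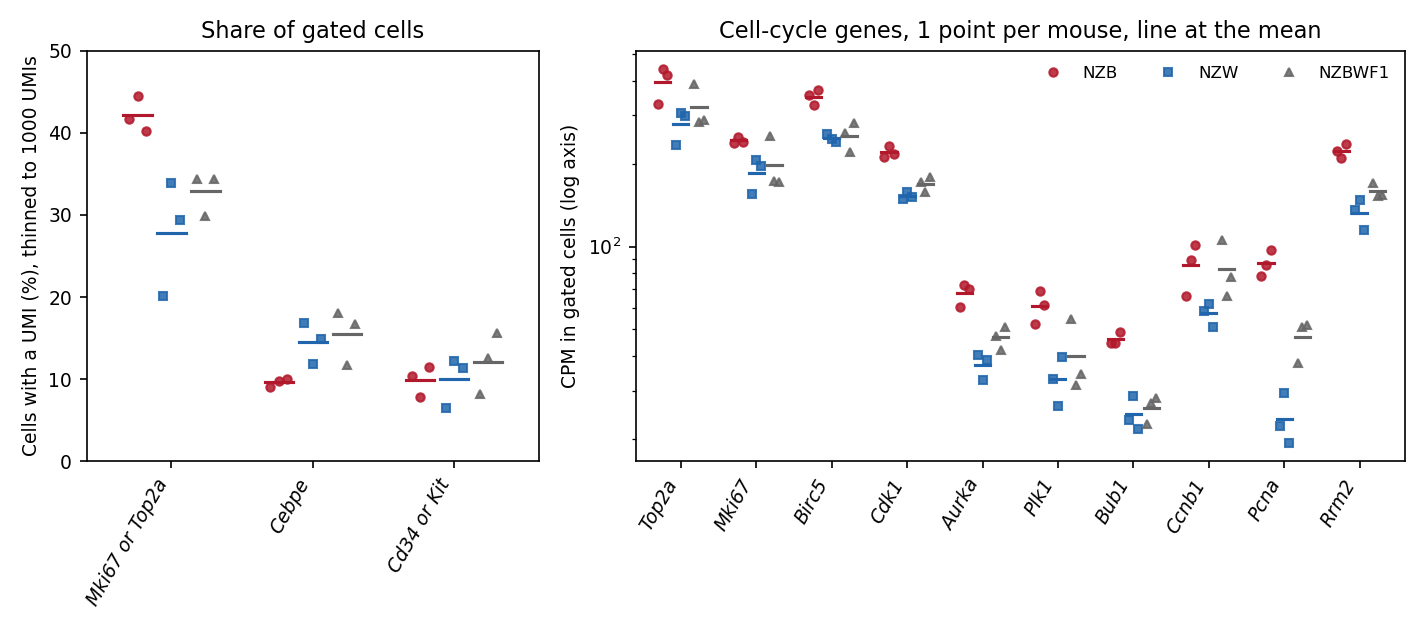
Left, share of gated cells with a UMI of the named genes after thinning to 1000 UMIs (percent); right, CPM of 10 cell-cycle genes (log scale); each point is 1 mouse, coloured by strain, with a line at the strain mean. The NZB mice lie at 40.3 to 44.5% for Mki67 or Top2a, above the 6 other mice, and above all NZW mice for the 10 genes.

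The 4 other shares did not pass the test. Cebpe was seen in 9.61 ± 0.533% of NZB cells, 14.5 ± 2.56% of NZW cells and 15.5 ± 3.31% of NZBWF1 cells (SD, n = 3; exact permutation p = 0.0821, adjusted p = 0.246). For Irf8, for Cd34 or Kit and for Gfi1 the exact permutation p was 0.607, 0.586 and 0.429, each with an adjusted p of 0.607.

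Genes of the primary granules differed in both directions. Of 11 tested genes of the azurophil granule and of protease processing, 1 rose in NZB (Ctsc), 3 fell (Fcnb, Cd63 and Man2b1) and 7 did not pass the test. Ctsg was at 4336, 4509 and 4719 CPM in NZB, 5115, 3830 and 4053 CPM in NZW and 3654, 4198 and 4643 CPM in NZBWF1, and the strains overlapped (-0.06 ± 0.11, adjusted p = 0.826). Ms4a3, Prss57 and Srgn, the proteoglycan core that packs granule proteases, did not pass the test either. Of the transcripts that defined the gate, Mpo ran from 6172 to 6767 CPM in NZB and from 7854 to 9386 CPM in the other 6 mice, Elane from 6971 to 8299 CPM in NZB and from 7428 to 11964 CPM in the others, and Prtn3 overlapped throughout, at 9039 to 11967 CPM. These values were part of the choice of cells and were not tested.

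Ctsc, the dipeptidase cathepsin C, activates the granule serine proteases by removing their propeptide. Ctsc stood at 296, 312 and 294 CPM in NZB, 113, 100 and 95.4 CPM in NZW and 117, 126 and 122 CPM in NZBWF1. The NZBWF1 mice were close to the NZW mice and far from the NZB mice. The fold change between the parents was 1.44 ± 0.12 on the log2 scale (adjusted p = 3.63e-16), that of NZBWF1 against NZB was -1.26 ± 0.12 (adjusted p = 4.34e-13) and that of NZBWF1 against NZW was 0.18 ± 0.13 (adjusted p = 0.796). Ctsc lies on chromosome 7, from 88278085 to 88310888 on the plus strand (GENCODE, GRCm38). Slpi, an inhibitor of elastase and cathepsin G, had the same shape, with 361 ± 29.6 CPM in NZB, 169 ± 20.5 CPM in NZW and 190 ± 4.86 CPM in NZBWF1 (SD, n = 3). Its fold change against NZB was -0.89 ± 0.12 (adjusted p = 8.49e-08).

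Fcnb, a ficolin stored in neutrophil granules, was lower in NZB at 39.1, 34.4 and 20.4 CPM than in NZW at 72.3, 81.2 and 60.5 CPM (-1.25 ± 0.19, adjusted p = 3.01e-07). Cd63, an azurophil granule membrane protein, and Man2b1, a lysosomal mannosidase, were lower by 0.59 each. Of 10 tested genes of the later granules, Anxa1 and Hp were higher in NZB and 0 were lower. None of the 6 subunits of the phagocyte oxidase rose, and Rac2 fell in NZB. Over all genes tested 5.23% rose and 6.43% fell, so the counts of lists this small are descriptions only.

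Transcription factors leaned toward lower levels in NZB. Of 22 tested, 9 fell in NZB and 2 rose, with a median log2 fold change of -0.19. Irf8 was at 421, 289 and 404 CPM in NZB and 453, 512 and 680 CPM in NZW (-0.69 ± 0.13, adjusted p = 5.42e-05). Cebpe was at 88.5, 107 and 98.6 CPM in NZB and 181, 116 and 140 CPM in NZW (-0.66 ± 0.14, adjusted p = 0.000364). Both were thus lower in NZB, the factor of the monocyte branch and that of the neutrophil branch, and in both cases no NZB mouse reached the lowest NZW mouse. The strain means of the groups of granule content were unlike, though mice of different strains overlapped and no test was run. The group of 5% or more held 7.42 ± 2.47% of the gated NZB cells, 18.1 ± 9.01% of the NZW cells and 17.3 ± 10.9% of the NZBWF1 cells (SD, n = 3), and the group of 1 to 2% held 43.9, 39.1 and 36.5%. The part of this in the levels of Cebpe and Irf8 was not tested. Spi1 (-0.51 ± 0.12), Runx1 (-0.61 ± 0.16), Myb (-0.47 ± 0.12), Sox4 and Zeb2 also fell, with Per3 and Xbp1. Cebpa, Gfi1 and Klf4 did not pass the test, at -0.21 ± 0.17, -0.52 ± 0.20 and -0.05 ± 0.14, although Klf4 was called higher in NZB with the granule limit at 2% (0.97, adjusted p = 0.00705).

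The 2 factors that rose in NZB were Cebpb, the C/EBP member tied to emergency granulopoiesis, at 585 ± 83.3 CPM against 354 ± 25.9 CPM in NZW (0.61 ± 0.12, adjusted p = 0.000151), and Id1, an inhibitor of helix-loop-helix factors. Id1 was at 70.8, 102 and 81.6 CPM in NZB, 37.2, 31.8 and 41.1 CPM in NZW and 49.1, 41.0 and 26.8 CPM in NZBWF1 (1.13 ± 0.18 between the parents, adjusted p = 1.23e-06). Of the 19 tested genes of precursor identity, 3 rose and 6 fell in NZB. Cd34 was at 73.6, 63.2 and 104 CPM in NZB and 116, 109 and 104 CPM in NZW (-0.61 ± 0.15, adjusted p = 0.00185), and Kit, the stem cell factor receptor, fell by 0.64 ± 0.21 (adjusted p = 0.0376).

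Of 12 tested growth factor and chemokine receptors, 2 rose in NZB (Csf2rb and the chemokine receptor Ccr2) and 3 fell (Il3ra, Kit and Ifngr1). Il3ra, the specific chain of the interleukin-3 receptor, was at 14.9, 13.6 and 15.9 CPM in NZB, 46.8, 47.8 and 41.1 CPM in NZW and 26.4, 35.3 and 31.4 CPM in NZBWF1, with no overlap (-1.74 ± 0.23 between the parents, adjusted p = 3.95e-09). Csf2rb, the common chain that this receptor shares with those for GM-CSF and interleukin-5, was higher in NZB, at 42.8, 63.7 and 51.0 CPM against 21.3, 30.2 and 26.4 CPM in NZW (0.93 ± 0.20, adjusted p = 0.000415). Csf2ra, the specific chain of the GM-CSF receptor, was at 77.3, 82.9 and 68.0 CPM in NZB and 45.7, 50.9 and 57.4 CPM in NZW and did not pass the test (0.47 ± 0.17, adjusted p = 0.0517). The receptors for G-CSF (Csf3r) and M-CSF (Csf1r) and Flt3 did not pass the test.

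At several loci 1 parent had almost no transcript. Ifi202b, an interferon-induced DNA-binding protein of the lupus-linked cluster on chromosome 1, was at 173, 174 and 183 CPM in NZB, at 0 CPM in the 3 NZW mice and at 35.8, 58.3 and 45.9 CPM in NZBWF1. NZB was at least 204-fold higher than NZW, taking 3 UMIs over the strain as the floor. Genes of the same family in that cluster went both ways. Ifi211 was higher in NZB, at 35.4, 35.4 and 31.7 CPM against 4.25, 3.18 and 6.98 CPM in NZW (2.69 ± 0.32, adjusted p = 3.23e-10). Mndal was lower, at 9.31, 9.10 and 4.53 CPM in NZB and 46.8, 43.8 and 59.7 CPM in NZW (-2.73 ± 0.25), and Ifi203 also fell in NZB (-1.76 ± 0.22). Among 17 tested interferon-stimulated genes, 6 rose in NZB and 4 fell, so the list did not move 1 way. Apobec3, a cytidine deaminase that restricts retroviruses, was among those that rose, with 135, 144 and 128 CPM in NZB, 23.4, 24.7 and 33.4 CPM in NZW and 90.6, 80.8 and 70.4 CPM in NZBWF1 (log2 fold change 2.2 ± 0.17, adjusted p = 1.48e-18).

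Ly6c2, a surface protein of precursors and monocytes, was at 118, 101 and 107 CPM in NZB, 1227, 1419 and 1386 CPM in NZW and 655, 707 and 609 CPM in NZBWF1 (-3.75 ± 0.13 between the parents, adjusted p = 4.84e-40). The nearby Ly6c1 was the reverse, at 105.2, 59.1 and 53.3 CPM in NZB and at no more than 0.796 CPM in any NZW mouse. Both lie on chromosome 15 and are close paralogs, so reads could be split between them by the counting. Their family member Ly6k was at 47.8, 35.8 and 50.4 CPM in NZW and at no more than 1.01 CPM in any NZB mouse. Of 5 tested genes of the Ly6 list, to which Ly6k did not belong, 3 rose in NZB (Ly6a, Ly6c1 and Ly6e) and Ly6c2 fell.

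Ferritin light chain was exchanged between a gene and its copy. Ftl1, on chromosome 7, was at 3103, 2594 and 2572 CPM in NZB, 67.0, 51.7 and 84.6 CPM in NZW and 973, 1101 and 1234 CPM in NZBWF1. Ftl1-ps1, a near-identical copy on chromosome 13, was at 13.04, 9.10 and 13.6 CPM in NZB, 2019, 1675 and 1815 CPM in NZW and 796, 949 and 1033 CPM in NZBWF1. Because reads of the 2 copies can be assigned to either, each gene's own fold change is uncertain. Summed, they came to 3116, 2604 and 2585 CPM in NZB, 2086, 1726 and 1899 CPM in NZW and 1770, 2051 and 2267 CPM in NZBWF1. The sum, an analysis added after the values were seen, was higher in NZB than in NZW by 0.42 ± 0.12 on the log2 scale (adjusted p = 0.00721). NZBWF1 was lower than NZB by 0.42 ± 0.12 (adjusted p = 0.0234) and differed from NZW by 0.00 ± 0.12 (adjusted p = 0.999). Against the mean of the parents the sum had a log2 fold change of -0.21 ± 0.10 in NZBWF1 (edgeR adjusted p = 0.895). Ferritin heavy chain, Fth1, was higher in NZB by 0.39 ± 0.11 (adjusted p = 0.0101).

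**Figure D4:**
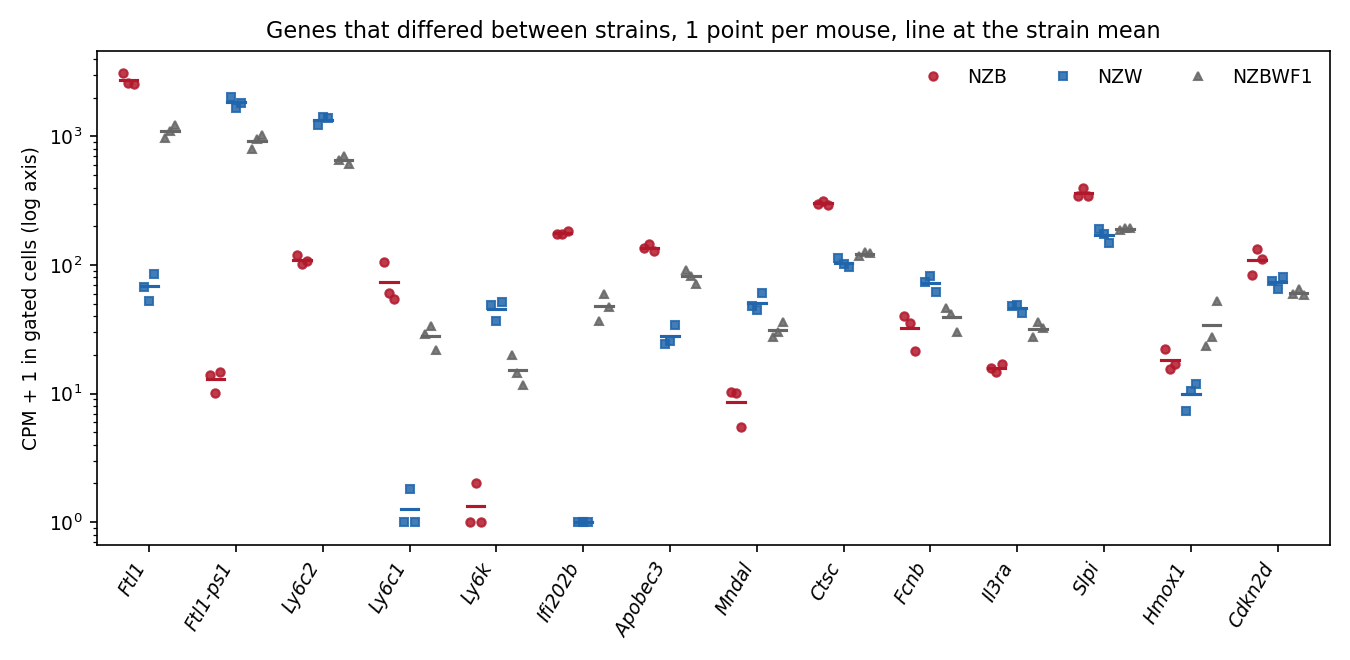
CPM plus 1 of 14 genes in the gated cells of each mouse (y axis, log scale), by strain (colour and marker), with a line at each strain mean. Ftl1 and Ftl1-ps1 are exchanged between NZB and NZW with NZBWF1 between them, while Ctsc and Slpi of NZBWF1 lie beside NZW.

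Markers of other cells moved between the parents as well. Of 5 tested B cell genes, 4 were lower in NZB (Vpreb3, Ebf1, Cd79a and Cd79b), and without Igkc the B cell list summed to 49.0 to 57.7 CPM in NZB, 116 to 144 CPM in NZW and 79.2 to 151 CPM in NZBWF1. The part of these transcripts in the other differences was not tested. With immunoglobulin genes taken out of the fit, an alternative added after the values were seen, 423 genes were higher and 516 lower in NZB. Beside the list counts that follow, 5.23% of all genes tested were higher and 6.43% lower in NZB. Of the remaining lists, the monocyte lineage (14 tested) had 2 genes higher and 2 lower in NZB, major histocompatibility genes (9) had 1 and 1, the basophil and mast cell markers (2) had 1 higher (Mcpt8, whose direction turned and whose call was lost with the granule limit at 0.5% or set on Ctsg), the dendritic cell markers (3) had 1 lower (Bst2), the macrophage markers (3) had 1 lower (Vcam1), and the erythroid (4) and mature neutrophil (4) markers had 0 and 0.

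For genes that differed between the parents, NZBWF1 mostly lay between them. Among the 930 genes called between the parents, 849 (91.3%) had an NZBWF1 mean between the parents' means. Such genes were chosen for a gap between the parents, which favours a mean inside it. Over tested list members, called or not, the count was 19 of 24 for the ER list and 19 of 22 for the mitotic list. It was 11 of 22 for transcription factors, 5 of 14 for the monocyte lineage and 0 of 6 for the oxidase. The ER and mitotic lists had median log2 fold changes of 0.38 and 0.39 between the parents, and such a gap also favours a mean inside it. The share over all genes tested is not given here, so these counts are descriptions only. Scaled from 0 at the NZW mean to 1 at the NZB mean, the median place of NZBWF1 was 0.42, with quartiles of 0.24 and 0.57. The direct comparisons with each parent share the NZBWF1 mice and are given side by side. Against NZB, 116 genes were higher in NZBWF1 (1.45% of those tested) and 123 lower (1.54%), and against NZW, 44 were higher (0.552%) and 39 lower (0.489%), or 1.04% in all. For the ER list, 10 of 24 genes were lower in NZBWF1 than in NZB and 0 higher, and 1 (Calr) was higher than in NZW. For the mitotic list the counts were 4 lower than in NZB (Birc5, Bub1, Nusap1 and Plk1) and 0 different from NZW. Against NZB the ER count was 9 with DESeq2 and 1 of 23 at the 5% mitochondrial limit, with medians of -0.24 and -0.13 against -0.22, and the mitotic count was 1 and 0 of 21, with medians of -0.33 and -0.51 against -0.31. Cd34, Myb and Sox4 were higher in NZBWF1 than in NZB, by 0.66 ± 0.15, 0.56 ± 0.12 and 0.73 ± 0.17, with adjusted p = 0.00209, 0.00214 and 0.00424. B cell genes were higher in NZBWF1 than in NZB too, with 4 of 5 called (Cd79a, Cd79b, Ebf1 and Vpreb3) and a median log2 fold change of 2.65, and Ebf1 and Vpreb3 were also called against the parents' mean. Their part in the other differences was not tested.

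Against the mean of both parents, 20 genes were higher in NZBWF1 (0.251% of those tested) and 2 lower (0.0251%), or 0.276% in all, and 441 had an unadjusted p under 0.05. Ftl1-ps1 (2.65 ± 0.12) and Ftl1 (1.32 ± 0.11) were among the 20. With these copies summed, 18 genes were higher and 2 lower, and the sum did not pass the test. The mean was taken on the log scale, where a gene that is almost silent in 1 parent has a mean far below the middle of the CPM values, and 18 of the 22 genes had NZBWF1 between the parents' mean CPM. Only 2 of the 22 had all NZBWF1 mice outside the range of the 6 parent mice, which held for 1.68% of all genes tested. Hmox1, haem oxygenase, was at 22.6, 26.4 and 51.2 CPM in NZBWF1, 21.4, 14.7 and 15.9 CPM in NZB and 6.38, 9.55 and 10.9 CPM in NZW (1.46 ± 0.23, adjusted p = 2.08e-05). Its highest value was in replicate 3, the mouse with the Igkc transcripts, and the other NZBWF1 mice were close to NZB replicate 1. The 6 macrophage markers summed to 64.0 to 84.9 CPM in NZBWF1, 40.8 to 41.9 CPM in NZB and 48.9 to 70.2 CPM in NZW, and of the 3 that were tested Vcam1 was called higher in NZBWF1 than in NZB. Their part in the level of Hmox1 was not tested. Cdkn2d, an inhibitor of the G1 kinases CDK4 and CDK6, was at 58.5, 64.0 and 57.4 CPM in NZBWF1, 81.9, 132 and 110 CPM in NZB and 74.4, 64.5 and 79.1 CPM in NZW (-0.59 ± 0.14, adjusted p = 0.038), a gap of under 1 CPM to the lowest NZW mouse.

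Whether a strain difference was the same in neighbouring populations was tested by an interaction with the mouse as a block. Between NZB and NZW, 275 of 9792 genes (2.81%) differed in their fold change between the gated cells and the Camp and Ngp cells, and 205 of 9279 (2.21%) between the gated cells and the monocyte lineage. Granule transcripts were among them. Ctsg was level between the parents in the gated cells but higher in NZB in the Camp and Ngp cells, at 235 ± 81.8 CPM against 123 ± 3.1 CPM in NZW (SD, n = 3), and the difference of the log2 fold changes was -1.11 ± 0.16 (adjusted p = 2.2e-05). Ctsg, Mpo, Elane and Prtn3 were seen most often in the Camp and Ngp cells of NZB replicate 2. That mouse also had the highest share of Mpo, Elane and Prtn3 in its free RNA (0.285%). Ms4a3 was instead seen most often in those of NZW replicate 2, at 17.8% against 13.6% in NZB replicate 2. After thinning, Ctsg was seen in 2.52, 7.27 and 4.05% of these cells in NZB against 3.36, 4.25 and 3.32% in NZW, and Prtn3 in 8.78, 21.2 and 10.5% against 8.47, 12.3 and 8.50%. The Camp and Ngp cells had no limit on Mpo, Elane and Prtn3, and 759 of them held 1% or more. All gated cells held at least 1% by choice. The part of these transcripts, cells and limits in the differences of granule genes was not tested. Srgn (-1.20 ± 0.14) and Prss57 (-0.95 ± 0.18) also differed, with adjusted p = 1.93e-07 and 0.000885. Their log2 fold changes were -0.18 ± 0.12 and -0.38 ± 0.19 in the gated cells, which did not pass the test, and 1.01 ± 0.14 and 0.56 ± 0.16 in the Camp and Ngp cells, which did. Cebpe, lower in NZB in the gated cells, had a log2 fold change of 0.00 ± 0.14 in the Camp and Ngp cells, where it stood at 793 and 886 CPM in NZB and NZW (difference -0.67 ± 0.17, adjusted p = 0.0163).

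Fcnb turned its direction between lineages. It was lower in NZB in the gated cells but higher in the monocyte lineage, at 40.8 ± 4.5 CPM against 16.3 ± 1.8 CPM (SD, n = 3; difference of the log2 fold changes -2.57 ± 0.26, adjusted p = 3.41e-15). Ms4a3 was level in the gated cells and higher in NZB monocyte-lineage cells, at 61.6 ± 28.6 CPM against 24.8 ± 4.2 CPM (difference -1.23 ± 0.16, adjusted p = 1.06e-08). In the thinned cells of the monocyte lineage, some transcripts of the gated cell type were also seen more often in NZB. Prtn3 was seen in 40.8, 56.9 and 40.1% of NZB cells against 24.6, 21.8 and 28.5% of NZW cells by mouse, and Elane in 20.5 ± 8.2% against 8.5 ± 0.3% (SD, n = 3). Others had a lower mean in NZB, with Ctsg at 362 CPM against 435 CPM in NZW, Prss57 at 2.80 against 3.27 CPM and Cd34 at 11.7 against 27.5 CPM. Mki67 or Top2a, which mark dividing cells, were seen in 49.2 ± 11.8% against 33.1 ± 2.6% (SD, n = 3). Ly6c2 was lower in NZB in the 3 populations, by 2.81 in the monocyte lineage, 3.75 in the gated cells and 6.56 in the Camp and Ngp cells on the log2 scale. Free RNA and cells of 1 population caught in the limits of another could enter these values, and their part was not tested beyond the subtraction of free RNA, which left 264 and 195 genes that differed between the parents.

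**Figure D5:**
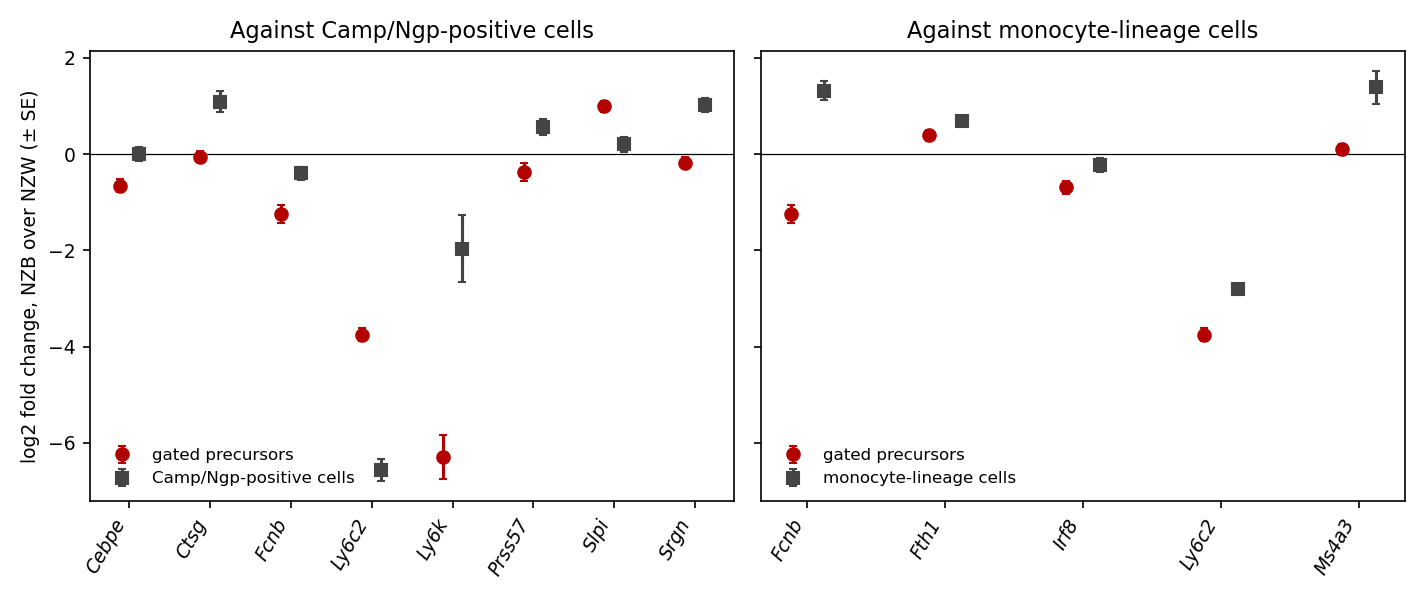
Log2 fold change of NZB over NZW (y axis, with SE) for genes whose change differed between the gated precursors (red circles) and Camp and Ngp cells (left, grey squares) or monocyte-lineage cells (right, grey squares). Fcnb lies at -1.25 in the precursors and at 1.32 in the monocyte lineage.

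For NZBWF1 against the mean of its parents, 3 genes differed from the Camp and Ngp cells (0.0306% of those tested: Ly6c2, Chchd10 and the immunoglobulin gene Iglv1, the last 2 named after their values were seen) and 19 from the monocyte lineage (0.205% of those tested). The differences of smallest p in the latter were Tsc22d1 (-3.68 ± 0.31), Clu (-5.63 ± 0.59), Nrgn (-4.12 ± 0.49) and Gng11 (-4.52 ± 0.57). They were relatively higher in the monocyte lineage of NZBWF1, as was the B cell gene Cd79b (-0.71 ± 0.17). Tsc22d1, Clu, Nrgn and Gng11 are also known from platelets. Of the megakaryocyte list 0 of 2 tested genes differed, with a median difference of -0.48. Within the monocyte lineage, 2 genes of that list had a median log2 fold change of 2.44 in NZBWF1, and 0 were called. The part of platelet transcripts in these differences was not tested. Among the 19, Ccnb1, Cdc20 and Tpx2 belong to the mitotic list and were relatively higher in the gated cells. Within the gated cells 0 of the 22 mitotic genes were called in this comparison (median -0.14). Within the monocyte lineage 6 of 22 were lower in NZBWF1 and 0 higher (median -0.42), where 0.827% of all genes were called.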

How the data were processed

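Droplet libraries (10x 3′ chemistry) of 9 mice, 3 for each strain, were used. Per the labels, the authors demultiplexed with bcl2fastq 2.20 and counted UMIs with Cell Ranger 3.1.0 on mm10, and the deposited matrix holds whole-number UMI counts. The authors joined the libraries with Cell Ranger's aggregation step. No source read here states if this step evened out the depth of the libraries, in which case the depths per mouse are those left afterwards. In this matrix the number after a barcode's hyphen gave the mouse (0 columns lacked one). Counts of gated cells were summed per mouse, since cells are not replicates. They were scaled by TMM and tested with edgeR 4.0.16 (R 4.3.3) on all 9 mice without a block, after its filter on low counts. The members and gene lists were chosen with earlier results of these data known. Genes could be named if they were, for a comparison and direction, among the 6 of smallest p of the called genes whose groups did not overlap and whose higher strain had a mean of at least 20 CPM, if they were called members of the gene lists, or if they belonged to a fixed set of myeloid, ferritin and cell-cycle genes. The text gives part of these. Genes outside this rule (Cst7, Fkbp11, Ssr4, Sec61b, Cdc20, Pcna-ps2, Tsc22d1, Clu, Nrgn and Gng11, beside those so marked in the text) were named after their values were seen. Doublets were kept, and Scrublet (Scanpy 1.11.5) marked 14 of the 2002 gated cells in an alternative. The edgeR test was checked on simulated data with 200 changed genes. It recovered 66 at a 1.5-fold change, 140 at 2-fold and 192 at 4-fold, with 2, 3 and 12 false calls. A gene that did not pass can thus still differ. Barcodes shared between libraries were 557 sequences among the deposited cells, 170 among those kept and 0 among the gated. DESeq2 1.42.0, another scaling, other limits, a replicate block, subtraction of free RNA and leaving out each mouse were tried as alternatives. The interaction models held the mouse as a block. Shares were tested by exact permutation over mice.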

Additional observations from a re-analysis of the deposited data

Results flagged for a closer look

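These strain differences, between NZB and NZW unless stated, were picked because the fold change in the gated cells differed from that in a neighbouring population by the interaction test. Values are differences of log2 fold changes, gated cells minus neighbour. Against the Camp and Ngp cells they were -0.67 for Cebpe, -1.11 for Ctsg, -0.88 for Fcnb, -0.95 for Prss57, -1.20 for Srgn, 0.76 for Slpi, 2.77 for Ly6c2 and -4.68 for Ly6k. The last depends on the prior count of the fit, since the gated NZB cells held 2 UMIs of Ly6k. Against the monocyte lineage they were -2.57 for Fcnb, -1.23 for Ms4a3, -0.93 for Ly6c2, -0.42 for Irf8 and -0.28 for Fth1. For NZBWF1 against the mean of its parents, Ly6c2 differed from the Camp and Ngp cells by -1.49. This rests on the mean of the parents on the log scale: in the Camp and Ngp cells Ly6c2 was at 5.86 CPM in NZB, 653 CPM in NZW and 328 CPM in NZBWF1, which lies near the middle of the parents' CPM.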

How the results depend on the processing

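Same-numbered mice of different strains did not deviate together (correlations from -0.092 to 0.067), so the numbers were not read as pairs. With the replicate block, 25 genes were called for NZBWF1 against the parents' mean, 217 against NZB, 74 against NZW and 849 between the parents, and p for Mki67 or Top2a was 0.0556. Counts of called genes, in that order of comparisons and against 22, 239, 83 and 930, were 14, 102, 47 and 500 with DESeq2, where 14, 96, 45 and 491 were the same genes. With at most 5% mitochondrial UMIs they were 3, 14, 9 and 96, from 2944 genes and 345 cells. With the granule limit at 2% the count against NZB was 128, and the interaction counts for NZBWF1 were 1 (Camp and Ngp cells) and 8 (monocyte lineage). Leaving out 1 mouse gave 14 to 26, 106 to 249, 49 to 90 and 543 to 1039. It gave 103 to 317 and 134 to 248 interaction genes between the parents against the Camp and Ngp cells and the monocyte lineage, and 2 to 8 and 10 to 37 for NZBWF1. Counts moved by over 1.5 times without NZBWF1 replicate 2 (14 against the parents' mean, 121 against NZB), NZB replicates 2 and 3 (106 and 159 against NZB), NZW replicates 1 and 3 (54 and 49 against NZW) and NZW replicate 3 (543 between the parents). Interaction counts between the parents moved as much without NZB replicate 3 (141 against the Camp and Ngp cells, 134 against the monocyte lineage) and, for the former, NZW replicates 2 and 3 (154 and 103).

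For shares, leaving out 1 mouse gave p from 0.157 to 0.825 for the gate, 0.00357 to 0.05 for Mki67 or Top2a, 0.236 to 0.964 for Cd34 or Kit, 0.0143 to 0.193 for Cebpe, 0.257 to 0.746 for Gfi1 and 0.329 to 0.932 for Irf8. Mki67 or Top2a gave an exact permutation p of 0.196 with the granule limit at 0.5% and 0.0821 at 2%, Cebpe gave p = 0.0214 at 0.5%, and the gate share gave p = 0.0143 at 5% mitochondrial UMIs. Directions between NZB and NZW turned for Mcpt8 (-0.16 at a 0.5% limit, -0.075 with a limit on Ctsg), S100a4 (-0.10 at 5% mitochondrial UMIs) and Klf4 (0.97 at a 2% limit, which passed the test). Of the other single-gene values under alternatives, 11619 kept their direction and side of the threshold or were not called in either, 536 lost the call and 81 gained it. The causes were not tested. Depth limits rare transcripts, with 61 cells in NZBWF1 replicate 1.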
